A study of Mus musculus with 16 samples.

Results

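The genes described here are 6 that bind or handle iron, heme or other metals: the plasma carriers hemopexin (Hpx), transferrin (Trf) and lipocalin 2 (Lcn2), the metallothioneins Mt1 and Mt2, and the erythroid heme synthesis enzyme Alas2. They were chosen by symbol, as the probes whose only gene symbol is 1 of these names. Each had 1 probe with a value on all 16 arrays, and together they made up 6 of the 8923 genes and unnamed probes measured. The livers came from female APOE3Leiden mice, which carry a transgene for a human apolipoprotein E variant on an almost pure C57BL6/JIco background. The treated mice ate diet W, a Western-type feed holding, per 100 g, 15 g of fat and 0.25 g of cholesterol, with 0.04% cafestol and 0.02% kahweol by weight, the diterpenes of unfiltered coffee, for 4 weeks from 10 weeks of age. Control mice of the same strain, sex and age ate the same diet without them, 8 treated and 7 control animals in the study. RNA of every treated liver went onto 2 cDNA arrays of 2 colours against control-diet liver RNA, with the treated liver in Cy5 and the control in Cy3 on every array. The labels do not say which control mice, or how many, went into the Cy3 sample.

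Plasma transferrin carries ferric iron to cells, which take it up through the transferrin receptor, and ferritin stores it inside the cell. Hemopexin binds free heme and brings it to the liver, where heme oxygenase opens the ring, and lipocalin 2 binds the siderophores with which bacteria collect iron. The liver secretes all 3 of these proteins, and hemopexin and lipocalin 2 belong to the acute phase proteins that inflammation induces. Metallothioneins are small cysteine-rich proteins that hold zinc and copper in the cell and are induced by metals through the factor MTF1, by glucocorticoids and in the acute phase. Alas2 makes the first heme precursor in red cell precursors, while hepatocytes use the related enzyme Alas1.

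The values are log2 ratios of the 2 channels of an array. They run in steps, because each ratio was stored with 1 decimal, and the smallest step from 0 was 0.1375. The sources used here do not say which channel was divided by which, so signs are given as deposited. In the same ratios the glutathione S-transferase Gstm1, of a family that these diterpenes are known to induce in rodents, was at -2.48 ± 0.23 (SD, n = 8 mice). The bile acid enzyme Cyp7a1, which they are known to lower, was at 1.56 ± 0.38. If the ratio is control over treated, as these genes would have it, a negative value means more transcript in the cafestol livers, but no independent value settles this. "Negative" and "positive" below refer to the deposited sign only.

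Of the 6 genes, 3 were negative (Hpx, Lcn2 and Trf), 2 were positive (Mt1 and Mt2) and Alas2 did not pass the threshold, an adjusted p of 0.05 in a limma fit across 8348 genes and unnamed probes. Of all those tested, 43.4% passed, 25.4% with a negative and 18.0% with a positive mean, and the median log2 ratio was -0.02. The 6 genes were chosen with these results known, so their count is a description. The test sets the mean of the 8 treated livers against 0 and leaves out the spread among control mice.

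Hpx (Entrez 15458) was negative on all 16 arrays. Its log2 ratio was -1.14, -1.04, -1.0 and -0.72 in the SY mice and -0.77, -0.93, -0.63 and -0.32 in the TP mice, SY and TP being the 2 series into which the mouse identifiers fall. TP4215 stood closest to 0 and SY518Z farthest, and the 2 arrays of a mouse never differed by more than 0.13. The mean was -0.82 ± 0.26 (SD, n = 8), a 1.76-fold difference between the channels (limma, adjusted p = 1.13e-05). It was the 13th lowest mean of the 8348, next to Lcn2 in the order.

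Lcn2 (Entrez 16819) was also negative on all 16 arrays, with a mean of nearly the same size but a wider spread over mice. The log2 ratios were -1.55, -0.85, -0.54 and -0.32 in SY mice and -1.17, -1.38, -0.43 and -0.32 in TP mice. SY518Z, TP4168 and TP4163 were the 3 lowest, and both series held mice near -0.32. The mean was -0.82 ± 0.49 (SD, n = 8), a 1.76-fold difference (limma, adjusted p = 0.000534). It had the 18th largest SD over mice of all genes and probes tested. The single farthest reading of any of the 6 genes was Lcn2 on the array of SY518Z with code bl7, at -1.72, against -1.38 on the other array of that liver.

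Trf (Entrez 22041) was negative on all 16 arrays and lay closer to 0 than the other carriers. Its log2 ratios in SY mice were -0.31, -0.59, -0.26 and -0.37, and in TP mice -0.26, -0.76, -0.48 and -0.26. The mean was -0.41 ± 0.18 (SD, n = 8), a 1.33-fold difference (limma, adjusted p = 0.000123). It did not pass against a minimum difference of 1.2-fold (adjusted p = 0.356). Trf was the least repeatable of the 5 genes that passed: the 2 arrays of SY518Z gave -0.49 and -0.14, and those of TP4168 -0.59 and -0.93. The SD of single arrays within a mouse was 0.156, against an SD of 0.182 over the mouse means.

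**Figure D1:**
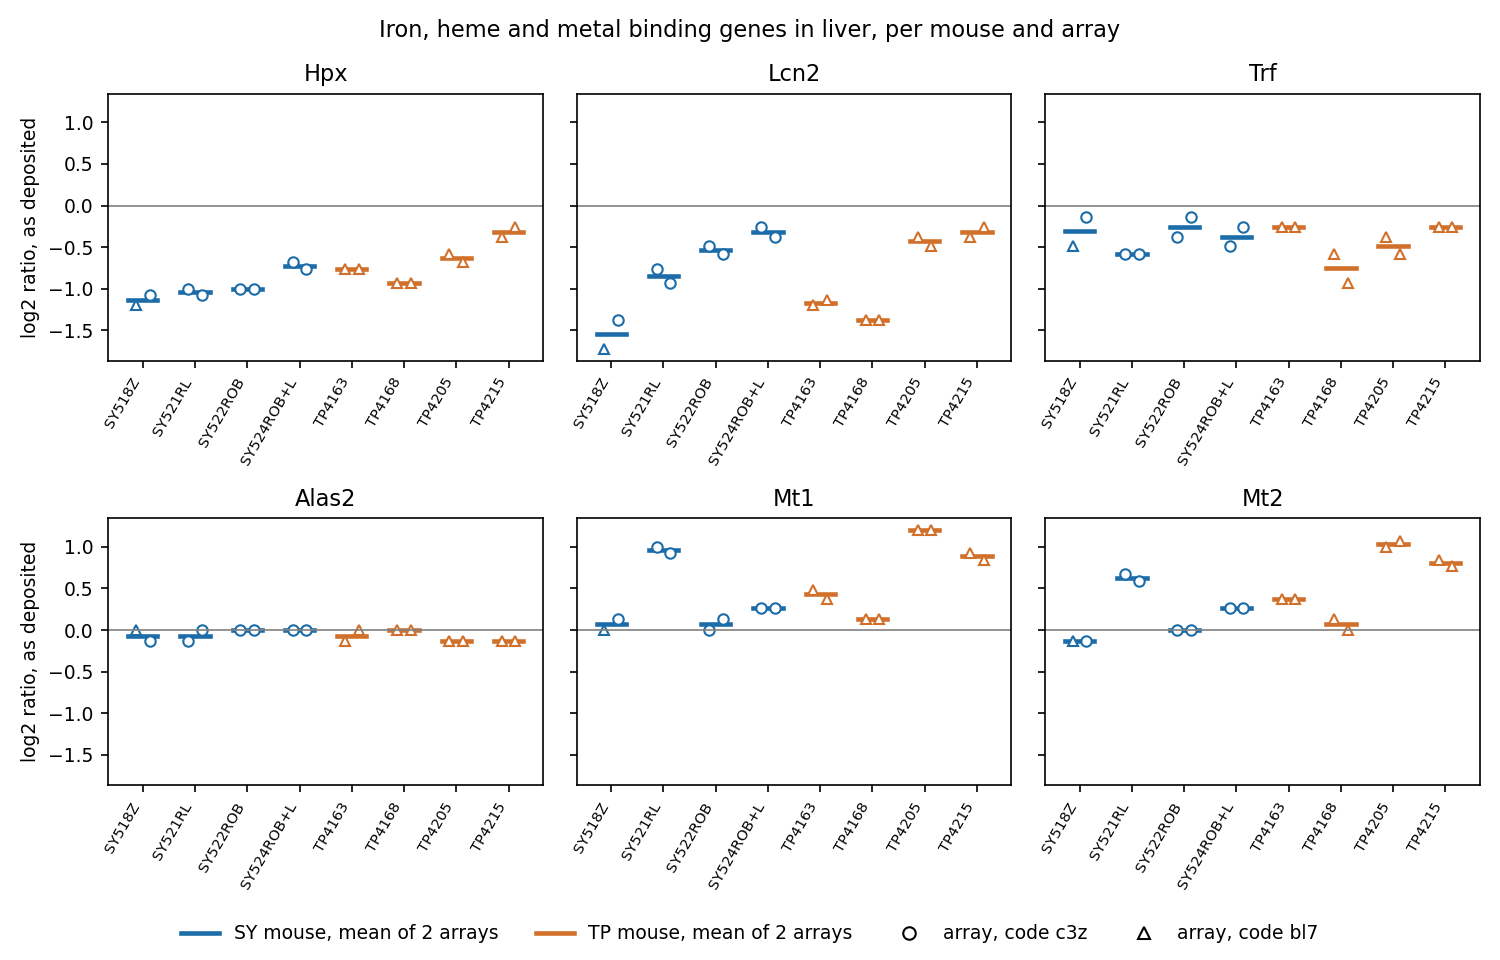
Log2 ratio as deposited (vertical axis) of each gene in each mouse (horizontal axis), SY mice in blue and TP mice in orange. Lines are mouse means over 2 arrays and open symbols single arrays, with circles for arrays of code c3z and triangles for bl7. All arrays lie below 0 for Hpx, Lcn2 and Trf, while Mt1 and Mt2 range from near 0 to above 1 and Alas2 stays within 1 rounding step of 0.

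Mt1 and Mt2 lay on the opposite side and varied widely between livers. Mt1 (Entrez 17748) had log2 ratios of 0.07, 0.96, 0.07 and 0.26 in SY mice and 0.43, 0.14, 1.2 and 0.89 in TP mice. TP4205, SY521RL and TP4215 were the 3 highest, while SY518Z, SY522ROB and TP4168 were within 1 rounding step of 0. The mean was 0.50 ± 0.45 (SD, n = 8), or 1.42-fold (limma, adjusted p = 0.00639), and 8 of 8 mice were positive.

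Mt2 (Entrez 17750) had -0.14, 0.63, 0.00 and 0.26 in SY mice and 0.38, 0.07, 1.04 and 0.81 in TP mice. The same 3 mice were highest and the same 3 lowest as for Mt1. The mean was 0.38 ± 0.41 (SD, n = 8), or 1.30-fold (limma, adjusted p = 0.018), and 6 of 8 mice were positive, 1 negative and 1 at 0. Neither metallothionein passed once a spread among controls was allowed for, taking the Cy3 RNA as pooled from 7 mice with the treated mice's variance (adjusted p = 0.0676 for Mt1 and 0.126 for Mt2) or against a minimum difference of 1.2-fold. In the SY mice alone neither passed (adjusted p = 0.2 and 0.345), and in the TP mice alone Mt1 passed and Mt2 did not (0.0555).

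The 2 genes are neighbours on chromosome 8 with 0 annotated genes starting between them, and their transcripts are alike enough that a cDNA probe of one may bind the other. Over the 8 mouse means they correlated at Pearson r = 0.97 (exact permutation p = 0.000149, adjusted p = 0.00223 over the 15 pairs of the 6 genes) and Spearman rho = 0.97 (exact permutation p = 0.000595, adjusted 0.00893). Without TP4205 and SY521RL, the mice farthest from the median of Mt1, r was 0.98. Mt1 exceeded Mt2 in 7 of 8 mice and equalled it in SY524ROB+L. The difference within a mouse averaged 0.12 ± 0.11 (SD, n = 8; exact sign-flip permutation test, two-sided p = 0.0156, where 0.00781 is the smallest possible), which is less than 1 rounding step of a single array. None of the other 14 pairs passed (exact permutation test, adjusted p of at least 0.125). Among them Hpx and Lcn2 had r = 0.66 and rho = 0.77 (exact permutation test, adjusted p = 0.226 and 0.22). Mt1 and Mt2 had r = -0.81 and -0.78 with Alas2 (adjusted p = 0.125 for both). With 8 mice, a pair that did not pass is not shown to be unrelated.

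**Figure D2:**
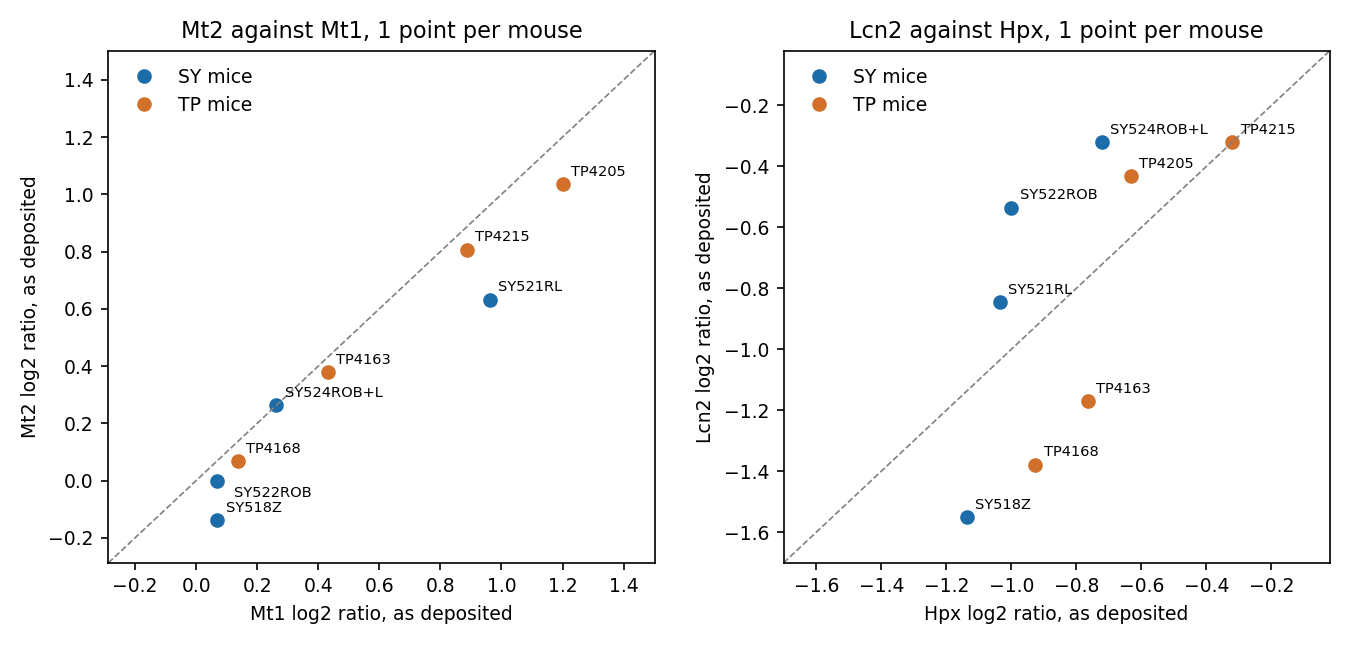
Log2 ratios as deposited of Mt2 against Mt1 (left) and of Lcn2 against Hpx (right), 1 point per mouse mean, SY mice in blue and TP mice in orange, with the line of equality dashed. The Mt1 and Mt2 points follow that line, with 7 of 8 mice under it, and the Lcn2 and Hpx points scatter more widely (Pearson r = 0.66).

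The promoters of the 2 metallothioneins are shown because both genes are known targets of MTF1, which binds metal response elements. The sequences are the 250 bases before the annotated start, from RefSeq on GRCm38.p6, at chr8:94178839-94179088 (plus strand) for Mt1 and chr8:94172368-94172617 (plus strand) for Mt2. Capitals mark matches on either strand to the core letters TGCACNC or TGCGCNC.
Mt1: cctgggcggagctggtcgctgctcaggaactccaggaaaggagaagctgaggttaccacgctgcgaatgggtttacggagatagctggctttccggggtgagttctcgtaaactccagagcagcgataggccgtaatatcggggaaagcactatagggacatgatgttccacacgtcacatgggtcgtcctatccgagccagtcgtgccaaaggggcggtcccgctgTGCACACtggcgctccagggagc
Mt2: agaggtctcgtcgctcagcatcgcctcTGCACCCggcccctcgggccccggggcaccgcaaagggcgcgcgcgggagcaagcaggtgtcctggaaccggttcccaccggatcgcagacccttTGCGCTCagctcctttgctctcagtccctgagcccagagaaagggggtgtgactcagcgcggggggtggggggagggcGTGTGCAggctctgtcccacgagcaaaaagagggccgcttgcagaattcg
Mt1 had 1 match, starting at position -23 (position -1 being the base before the start), and Mt2 had 3, at -223, -128 and -50. Counting also the 50 bases after the start, which are not printed, there were 3 matches for Mt1 and 4 for Mt2. Of these, 2 of Mt1 and 1 of Mt2 reached past the start. The counts therefore depend on where the start is annotated, and bases farther downstream were not searched. Of the 32851 promoter windows of 300 bases in the RefSeq set, 25.7% held at least 1 match, 1.97% at least 3 and 0.52% at least 4. In the same windows Hpx, Lcn2 and Alas2 had 0 matches. A match is a run of letters and not a measured binding site.

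The Hpx promoter is shown for a second motif, because glutathione S-transferases are known to be induced through antioxidant response elements. Gstm1 has the sign of Hpx, but so have Lcn2 and Trf, and 25.4% of all genes and probes tested passed with that sign. Capitals in the 250 bases before the start of Hpx, chr7:105600117-105600366 on the minus strand (GRCm38.p6, RefSeq), mark the match to TGACNNNGC on either strand.
Hpx: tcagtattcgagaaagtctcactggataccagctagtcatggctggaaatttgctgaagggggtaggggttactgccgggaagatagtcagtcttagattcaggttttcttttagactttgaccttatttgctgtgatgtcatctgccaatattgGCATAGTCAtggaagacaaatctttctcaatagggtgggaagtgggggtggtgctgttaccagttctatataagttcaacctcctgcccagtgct
The match starts at position -95. At least 1 such match was held by 10.16% of the 32851 windows of 250 bases and 12.39% of those of 300 bases. Mt2, on the opposite side, also had 1, at position -79, while Mt1, Lcn2 and Alas2 had 0. The letters TTCNNNGAA, a STAT-type motif of acute phase promoters, were in 0 of the 5 promoters and in 8.3% of all windows.

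Alas2 (Entrez 11656) did not pass (mean -0.06 ± 0.06, SD, n = 8; limma, adjusted p = 0.104). It read 0 on 9 arrays and -0.14, 1 rounding step, on the other 7. The 95% interval of the mean, computed from the 8 mice without limma's pooling of variances across genes, ran from -0.11 to -0.01. It leaves out 0, whereas with that pooling the limma p before adjustment was 0.0544. The SD over the mouse means was 0.0574 and the SD of single arrays within a mouse 0.0595. Every array lay within 1 rounding step of 0, so differences between mice were not resolved.

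The spread over mice, set against the spread between arrays of the same liver, separated the 6 genes. The SD over mice was 8.34 times the SD between arrays for Mt2, 7.31 times for Mt1, 4.63 times for Hpx and 4.45 times for Lcn2, against 1.17 times for Trf and 0.96 times for Alas2. Across all genes and probes tested the median SD was 0.106 over mice and 0.0688 between arrays. The differences between livers in Mt1, Mt2, Hpx and Lcn2 were therefore larger than the array error. SY518Z was the lowest mouse for Hpx, Lcn2 and Mt2 and tied with SY522ROB as the lowest for Mt1, but not the lowest for Trf or Alas2. Without it the means were -0.77 for Hpx, -0.71 for Lcn2, 0.56 for Mt1 and 0.45 for Mt2, and all 4 still passed.

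**Figure D3:**
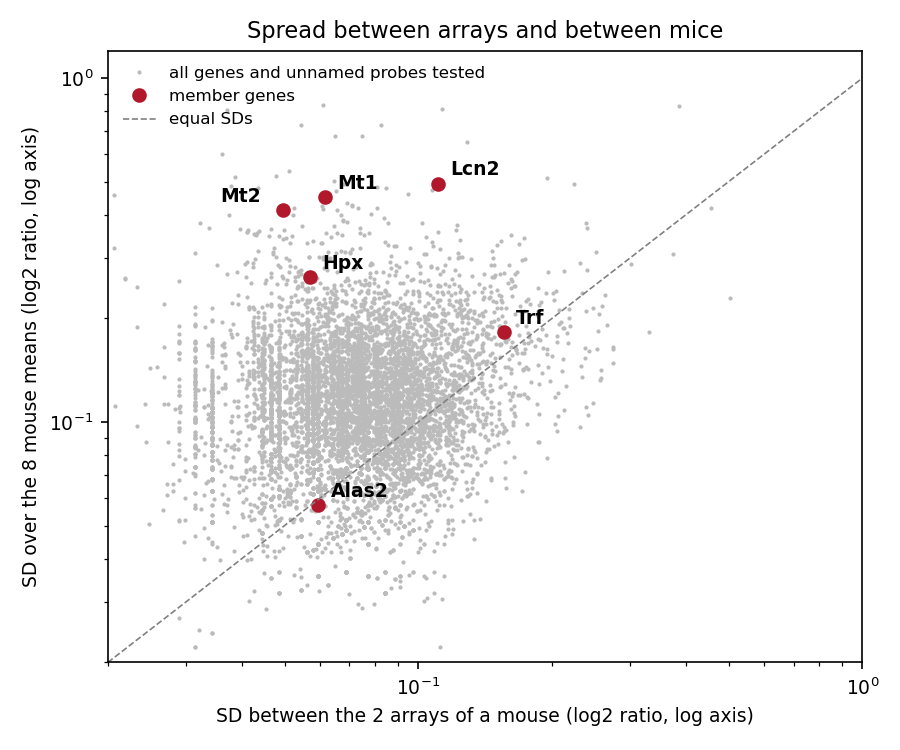
SD over the 8 mouse means (vertical) against SD between the 2 arrays of a mouse (horizontal), both of log2 ratios on log axes. The vertical SD is of means of 2 arrays and the horizontal SD of a single array. Grey points are the genes and unnamed probes tested with both SDs above 0, red points the 6 genes, and the dashed line marks equal SDs. Mt1, Mt2, Lcn2 and Hpx lie far above the line, Trf and Alas2 close to it.

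The SY and TP series were compared because array codes nearly follow them: SY livers were on arrays of code c3z, except 1 array of SY518Z, and TP livers on code bl7. None of the 6 genes differed between the series in the limma fit with 2 groups, in which 5.70% of all genes and probes passed, 1.29% with a positive and 4.41% with a negative difference. At an unadjusted p under 0.05, Hpx alone of the 6 did, and 2067 of all genes and probes. Hpx averaged -0.97 ± 0.18 in SY and -0.66 ± 0.26 in TP mice (SD, n = 4 each), a difference of -0.31 with a standard error of 0.12 (limma, adjusted p = 0.134). Mt2 averaged 0.19 ± 0.34 in SY and 0.57 ± 0.43 in TP mice, a difference of -0.38 with a standard error of 0.20 (adjusted p = 0.252), and Mt1 0.34 ± 0.42 in SY and 0.66 ± 0.47 in TP mice (adjusted p = 0.398). Lcn2 averaged -0.81 ± 0.54 in SY and -0.83 ± 0.53 in TP mice, and Trf -0.38 ± 0.14 in SY and -0.44 ± 0.23 in TP mice. The standard error of the difference was 0.27 for Lcn2 and 0.23 for Mt1, so that only wide differences between the series could have passed for these genes.

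The direct partners of the 6 genes were read in the same fit. The transferrin receptor Tfrc had the sign of Trf, at -0.22 ± 0.22 (limma, adjusted p = 0.0148). The ferritin heavy chain Fth1, which stores iron, was not among these partners. It is named as the gene farthest from 0 in the list of iron uptake, storage and export. Fth1 was at -0.70 ± 0.14 (limma, adjusted p = 9.24e-07), negative in 8 of 8 mice. Heme oxygenase Hmox1 had the sign of Hpx, at -0.38 ± 0.28 (adjusted p = 0.00235), while Lrp1, the uptake receptor of the heme and hemopexin complex, did not pass (-0.03 ± 0.11, adjusted p = 0.615). The lipocalin 2 receptor Slc22a17 was at -0.15 ± 0.07 (adjusted p = 0.00165). The metal sensor Mtf1 was at -0.23 ± 0.15 (adjusted p = 0.00223), opposite in sign to Mt1 and Mt2. Hamp and Hp had no probe with a single gene symbol and were not analysed here.

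Alas1, the heme synthesis enzyme of hepatocytes, did not pass (0.24 ± 0.54, SD, n = 8; limma, adjusted p = 0.212) but ranged from -0.43 in SY524ROB+L to 1.0 in TP4215. Its SD between arrays of a mouse was only 0.0512, and its SD over mice was the 12th largest of those tested. The mean was -0.03 in SY and 0.51 in TP mice (adjusted p = 0.2 for the difference).

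Beside Trf, 8 genes of iron uptake, storage and export were tested, of which 1 was positive, 3 negative and 4 did not pass (median -0.04). Counts in this and the following lists are to be read beside all genes and probes tested, 18.0% positive and 25.4% negative. The positive one was the metal importer Slc39a14 (0.16 ± 0.07), and the negative ones were Fth1, Tfrc and the iron chaperone Pcbp1 (-0.20 ± 0.09). Of 11 genes of iron regulation, 2 were positive, 6 negative and 3 did not pass (median -0.08). They included Aco1, the iron-sensing aconitase, at 0.17 ± 0.10, the inhibitory SMADs Smad7 (-0.20 ± 0.16, n = 7 mice) and Smad6 (-0.18 ± 0.06), and the receptor Bmpr2 (-0.14 ± 0.12). With the control taken as a mix of 7 mice, 3 in place of 8 passed in this list. Over all genes and probes 1811 in place of 3622 passed in that setting. The counts given below for other lists with the control as a mix are to be read beside that fall. Beside Lcn2, of 8 further lipocalins and siderophore genes 1 was positive, the retinol carrier Rbp4 (0.19 ± 0.12), and 3 were negative, Slc22a17, the acute phase protein Orm2 (-0.15 ± 0.15) and the endocytic receptor Lrp2 (-0.11 ± 0.07), with 4 not past the threshold. With the control as a mix of 7 mice, 3 in place of 5 passed, Lcn2 counted in.

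Heme synthesis had 3 positive and 0 negative genes of 7 tested beside Alas2 (median 0.12): the oxidases Cpox (0.30 ± 0.09) and Ppox (0.12 ± 0.09) and the coactivator Ppargc1a (0.20 ± 0.05), which induces Alas1. In heme scavenging and breakdown, beside Hpx, 2 of 5 were positive, the heme-binding protein Hebp1 (0.34 ± 0.09) and the haptoglobin receptor Cd163 (0.17 ± 0.10), 1 was negative, Hmox1, and 2 did not pass. Of 8 genes of iron-sulfur cluster assembly 2 were positive, Nfs1 (0.12 ± 0.13) and Ciao1 (0.10 ± 0.11), and 2 negative, Nubp1 (-0.24 ± 0.10) and Fdx1 (-0.12 ± 0.11), and 1 in place of these 4 passed with the control as a mix. Zinc and copper handling, beside Mt1 and Mt2, had 6 of 19 positive, 2 negative and 11 not past the threshold (median 0.01). Here the zinc importer Slc39a8 (0.39 ± 0.20), the copper gene Cutc (0.31 ± 0.10) and the metallothionein Mt3 (0.24 ± 0.08) were positive. Mt3 lay between 0.14 and 0.38 in all 8 mice, a narrower range than that of Mt1 or Mt2, and was highest in TP4168, where Mt1 was 1 step from 0.

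Acute phase genes, to which 4 of the 6 genes belong, did not share 1 sign. Beside those 4, 15 were tested, with 4 positive, 3 negative and 8 not past the threshold (median -0.02). Over all genes and probes tested 18.0% were positive and 25.4% negative (median -0.02), so these counts do not set the 15 apart. The list was covered in part: 19 of its 33 symbols, the 4 counted in, had a probe with a single gene symbol. Saa1, Saa2 and C3 had none, and the 15 include signalling genes such as Stat3 and Socs3. The inflammation-induced Saa3 (-0.36 ± 0.24) and the endotoxin-binding protein Lbp (-0.33 ± 0.26) were negative like Hpx and Lcn2, while Itih3 (0.36 ± 0.22) and serum amyloid P, Apcs (0.24 ± 0.24), were positive. With the control as a mix of 7 mice, 6 in place of 11 passed, Hpx, Lcn2, Mt1 and Mt2 counted in. Of 11 glucocorticoid-induced genes beside Mt1 and Mt2, 3 were positive and 3 negative, but with the control as a mix of 7 mice 1 in place of 8 passed, Mt1 and Mt2 counted in. Among them the gluconeogenic enzymes Pck1 (0.47 ± 0.41) and G6pc (0.30 ± 0.42) were positive, and Igfbp1 (-0.41 ± 0.35) and the cell cycle inhibitor Cdkn1a (-0.32 ± 0.13) negative.

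**Figure D4:**
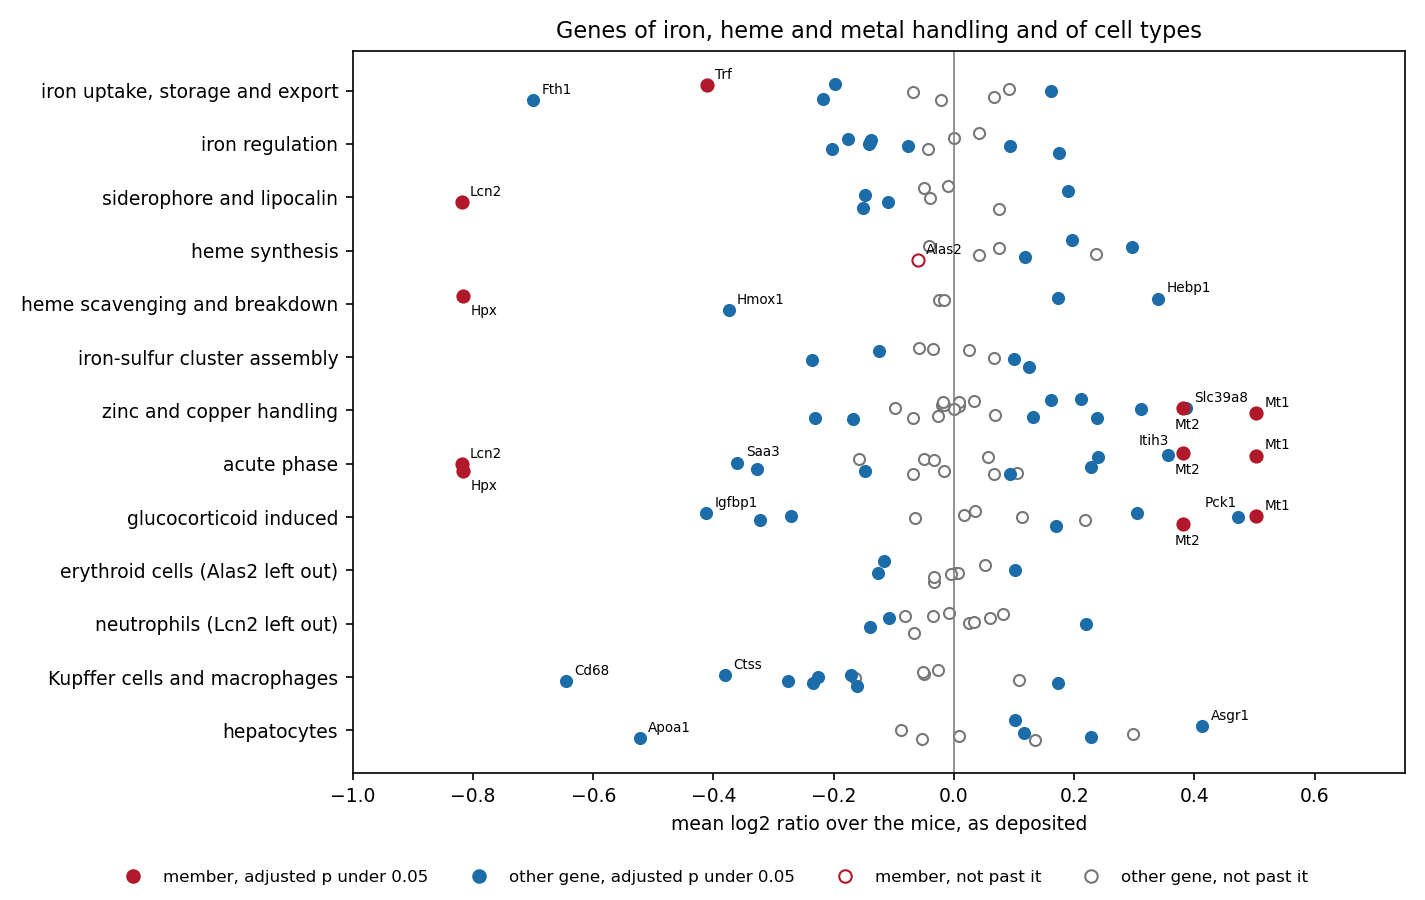
Mean log2 ratio as deposited over the mice (horizontal) of each gene tested in the lists of iron, heme and metal handling, related responses and cell types (rows). Filled points had an adjusted p under 0.05 in the limma fit and open points did not, with the 6 genes in red, and vertical scatter within a row only separates points. Hpx and Lcn2 lie farthest to the left in their rows and Mt1 farthest to the right in its rows.

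Several of these genes are also expressed by cells other than hepatocytes, and in whole liver a change in the number of such cells and a change in RNA per cell cannot be told apart. A ratio also gives no level, so the labelled tissue could not be checked against absolute values. Of 10 hepatocyte genes 4 were positive, such as Asgr1 (0.41 ± 0.20) and Fgb (0.23 ± 0.11), and 1 negative, Apoa1 (-0.52 ± 0.35), and 3 in place of these 5 passed with the control as a mix. Neutrophils store lipocalin 2, and of 11 neutrophil genes other than Lcn2, 2 were negative, Camp (-0.14 ± 0.13) and Ngp (-0.11 ± 0.06), 1 positive, Chil3 (0.22 ± 0.17), and 8 did not pass, with all 11 between -0.14 and 0.22. Of 9 erythroid genes other than Alas2, 1 was positive, Epor (0.10 ± 0.10), 2 were negative, Nfe2 (-0.13 ± 0.10) and Rhd (-0.12 ± 0.12), and 6 did not pass, all 9 lying between -0.13 and 0.10. With the control as a mix of 7 mice, 0 in place of 3 passed in the neutrophil list and 0 in place of 3 in the erythroid list. Both lists were covered in part: 9 of 25 erythroid symbols, no globin among them, and 12 of 23 neutrophil symbols had a probe with a single gene symbol. The means of the 9 erythroid genes were all smaller in size than the rounding step of 0.1375. Whether the numbers of these cells changed was not tested. Kupffer cells and macrophages, which recycle heme iron, had 7 of 13 negative, 1 positive and 5 not past the threshold (median -0.16). The negative ones farthest from 0 were Cd68 (-0.65 ± 0.22), Ctss (-0.38 ± 0.26), C1qc (-0.28 ± 0.18) and C1qa (-0.23 ± 0.13). Cd163 was positive (0.17 ± 0.10). Marco (-0.16 ± 0.48), Spic (-0.05 ± 0.09), Clec4f (-0.05 ± 0.11), Adgre1 (-0.03 ± 0.21) and Mrc1 (0.11 ± 0.20) did not pass. The part of these cells in the values of Hpx, Lcn2, Fth1 and Hmox1 was not tested.

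Over the 8 mouse means, the 3 named genes most like each of the 6 were found by Pearson correlation among 417 or 418 genes with an SD of at least 0.2, as a description. For Hpx these were Saa3 (r = 0.93), 2810021J22Rik (0.92) and the macrophage protein Cd68 (0.91). For Lcn2 they were the matrix protein Lum (0.93), the annexin Anxa5 (0.93, at -0.62 ± 0.36) and Uap1l1 (0.89). Mt1 and Mt2 were each most like the other (0.97), followed for both by the sialic acid enzyme Gne (0.83 with Mt1 and 0.86 with Mt2), then by Mospd1 for Mt1 (0.75) and Epcam for Mt2 (0.85). The genes most like Trf reached only 0.65 (Mug2), 0.62 (Mug1) and 0.62 (Slpi). For Alas2, whose mouse means took only 3 values, they were Slc25a25 (0.94), Osgin1 (0.89) and Tubb2b (0.87).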

How the data were processed

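Liver poly(A) RNA of 8 treated mice was hybridised on 16 cDNA arrays of 9596 probes, 2 per mouse, with 0 arrays of swapped dyes. The deposited values are log2 channel ratios, per the labels and the values themselves. How the authors normalized them, why some are blank and which way the ratio runs are not given in the sources. Raised from log2, all 144660 were numbers with 1 decimal, or their inverses (tolerance 0.01 after multiplying by 10). Every array median was 0, 8094 to 9314 probes per array had a value, and correlations between arrays ran from 0.15 to 0.912, none below 0.

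Gene names came from the 2007 platform annotation, updated by Entrez identifier (RefSeq, GRCm38.p6, names only): 7407 had 1 symbol, 437 several and 1752 none. Probes of a gene and then the arrays of a mouse were averaged, and genes and unnamed probes with values in at least 6 mice (8348) were tested against 0, and between SY and TP mice, with limma 3.58.1 (two-sided moderated test, Benjamini-Hochberg adjustment over all tested) under R 4.3.3. The number of mice limits the precision. The fits were also run on simulated data. Those data held independent mice and no error shared through the control RNA, so such error was not tested. The 6 genes, the lists and the tests were chosen with earlier results of these data known. Named genes were the 6, up to 4 called genes per list farthest from 0 (2 where none was called), direct partners, and the 3 genes most like each of the 6. The 5 Kupffer cell and macrophage genes not past the threshold were named outside this rule and are not among those flagged below. Promoters were in RefSeq for 5 of the 6. Figures were drawn with matplotlib 3.10.9.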

Additional observations from a re-analysis of the deposited data

Results flagged for a closer look

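The 6 genes gave no flag. Among the 71 genes named by rule, 3 had 1 mouse far outside the other 7 by Dixon's ratio (critical value 0.526), which chance gives in about 1 of 20 groups. Asgr1, the asialoglycoprotein receptor, had a log2 ratio of 0.85 in SY518Z, against 0.26 to 0.49 in the other mice. Igfbp1 was at -1.17 in SY518Z, against -0.54 to 0.00 elsewhere. C1qc was at 0.14 in TP4215, against -0.38 to -0.20 in the others.

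In 3 of the 71 named genes the SY and TP mice differed (limma with 2 groups, adjusted p under 0.05), a test that 5.70% of all genes and probes passed. On the first array of each mouse alone 0 genes or probes passed, these 3 included, with 1467 at an unadjusted p under 0.05, and without single mice 33 to 1275 passed. Hmox1 averaged -0.59 in SY and -0.16 in TP mice, a difference of -0.43 (limma, adjusted p = 0.0252). Chil3 averaged 0.08 in SY and 0.36 in TP mice (difference -0.28, adjusted p = 0.0398), and Tubb2b, one of the genes most like Alas2, 0.13 in SY and -0.38 in TP mice (difference 0.50, adjusted p = 0.0475). Array code nearly coincides with the series, and its part in these 3 differences was not tested.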

How the results depend on the processing

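Hpx and Lcn2 kept their call under the 20 alternatives that changed a log2 ratio, an adjusted p or the count called. Centring and scaling of the arrays, 2 more, changed none of these. The log2 ratio was -0.97 to -0.66 for Hpx and -0.89 to -0.71 for Lcn2 (limma, highest adjusted p 0.0117 and 0.0496). The sign was kept too, but it could not turn in settings that leave the log2 ratios of the 6 genes as they are. Those were looser or stricter numbers of mice with values, robust moderation, the minimum difference, the control as a mix, mouse as a random block, and single probes. Alas2 passed under none of the alternatives. Against a minimum difference of 1.2-fold, Trf (-0.41, adjusted p = 0.356), Mt1 (0.50) and Mt2 (0.38) did not pass, and 123 genes and probes did, in place of 3622. With the control as a mix of 7 mice, Mt1 (0.50) and Mt2 (0.38) did not pass and the count was 1811. In SY mice alone Mt1 (0.34) and Mt2 (0.19) did not pass and 2159 did, and in TP mice alone Mt2 (0.57) did not. Leaving out 1 mouse at a time (values in 5 of 7 mice required) gave -0.89 to -0.77 for Hpx, -0.89 to -0.71 for Lcn2, -0.43 to -0.36 for Trf, 0.40 to 0.56 for Mt1, 0.29 to 0.45 for Mt2 and -0.07 to -0.05 for Alas2, changed no call of these 6 (highest adjusted p of Mt2 0.0467), and left 3038 to 3776 genes and probes called. Mt1 minus Mt2, run only after quantile normalization and without each mouse, was 0.09 to 0.14 and past the threshold in all 9 settings.

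The difference between SY and TP passed for none of the 6 under any of 14 alternatives. Its sign, never called, turned for Lcn2 after quantile normalization (-0.11), with array code as a term (-0.52), on second arrays (-0.0009) and without single mice (-0.17 to 0.26), and for Trf after quantile normalization (-0.0050), with array code as a term (-0.17), on first arrays (-0.11) and without single mice (-0.046 to 0.13). The number of genes and probes differing between the series, 476, was 940 without the bl7 array of SY518Z, 157 with array code as a term, 0 on first arrays (1467 at an unadjusted limma p under 0.05), 228 on second arrays, and 33 to 1275 without single mice (33 without SY522ROB, 37 without SY524ROB+L, 47 without SY521RL, 99 without TP4205, 184 without TP4215, 252 without TP4168, 1275 without SY518Z); the cause was not tested. Treated and control mice could not be paired because no control mouse had an array of its own. With the control as a mix of 7 mice, called genes numbered 3 in place of 8 in iron regulation and 3 for 5 in siderophore and lipocalin. They numbered 1 for 4 in iron-sulfur assembly, 6 for 11 in acute phase and 1 for 8 in glucocorticoid-induced genes. In hepatocyte genes they numbered 3 for 5, and in both erythroid and neutrophil genes 0 for 3, the 6 genes counted in throughout. Over all genes and probes the count in that setting was 1811 in place of 3622.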
